A study of Mus musculus with 2 samples.

Results

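In nuclear RNA of lipid A-treated mouse macrophages, 14 coding genes had most of their transcript abundance on annotated retained-intron transcripts. A gene qualified when it had at least 1 protein_coding and 1 retained_intron transcript in the annotation, reached 20 TPM (a transcript level scaled to transcript length and library total) in both libraries, and had at least 80% of its summed transcript TPM on retained_intron transcripts in both. Of 55450 genes with a transcript entry, 9120 had both kinds of transcript and 1965 of these reached the TPM minimum. Leaving out Tnip3, Clk1, Clk4 and names that start with Srsf, Hnrnp, Rpl, Rps, Psm, Trim, Rab or Slc gave 1820 eligible genes, of which the 14 members were 0.769%. The members were thus chosen by their measured gene TPM and retained-intron shares of TPM, so high shares and low coding levels are descriptions of how the members were chosen.

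Retained introns are introns that stay in an RNA after other introns have been removed. Such RNAs are often held in the nucleus, and after export many are degraded because the intron brings an early stop codon. In the GENCODE annotation, retained_intron is a label for a transcript model that holds intronic sequence relative to the gene's coding transcripts, and a model with the label may be a short fragment of the gene.

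The 2 libraries were 1 group, with no untreated sample analysed here. Primary bone marrow-derived macrophages of C57BL/6J mice received lipid A at 100 ng/ml for 12 h. Lipid A anchors bacterial lipopolysaccharide in the outer membrane and is sensed by the receptor TLR4. The cells were washed and left for 12 h, then given lipid A at 100 ng/ml again for 25 min. Ribosomal RNA was depleted from the nucleoplasmic fraction, which other labels call nuclear, and replicate 1 was made from 500 ng and replicate 2 from 1 µg. Both libraries carry the same donor entry, sex and age were not collected, and the spread between them may be technical.

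The libraries held 20196408 and 19588980 expected counts (reads shared out over the transcripts they match), of which the members took 0.476% and 0.407%. All 10 macrophage markers exceeded 1 TPM, with summed levels of 5461 and 5008 TPM. None of 8 lymphocyte and 7 neutrophil markers did, and 4 and 5 of these were listed at 0 in both libraries. Above 1 TPM were 1 of 5 dendritic, 2 of 7 erythroid and mast and 1 of 6 stromal markers, with summed levels of 1.81 to 4.21 TPM per list.

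Member levels ran from Lilrb4a at 1435 and 900 TPM down to Rpain at 22.5 and 25.7 TPM. The median member had 53.4 and 42.8 TPM, close to the 45.3 and 38.5 TPM of the other 1806 eligible genes. The median retained-intron share was 91.0% and 88.4% in the members and 26.5% and 27.4% in the others. Just inside the 80% limit lay Pirb (81.1% and 84.6%), Ncl (83.9% and 81.4%) and Mtm1 (83.9% and 81.8%). Just outside lay Ankrd16 (91.1% and 79.7%), Tbce (79.4% and 82.6%) and Ddhd1 (84.4% and 79.4%), and 19 genes passed in 1 library only. At a limit of 50%, 12.7% of eligible genes passed by TPM.

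**Figure D1:**
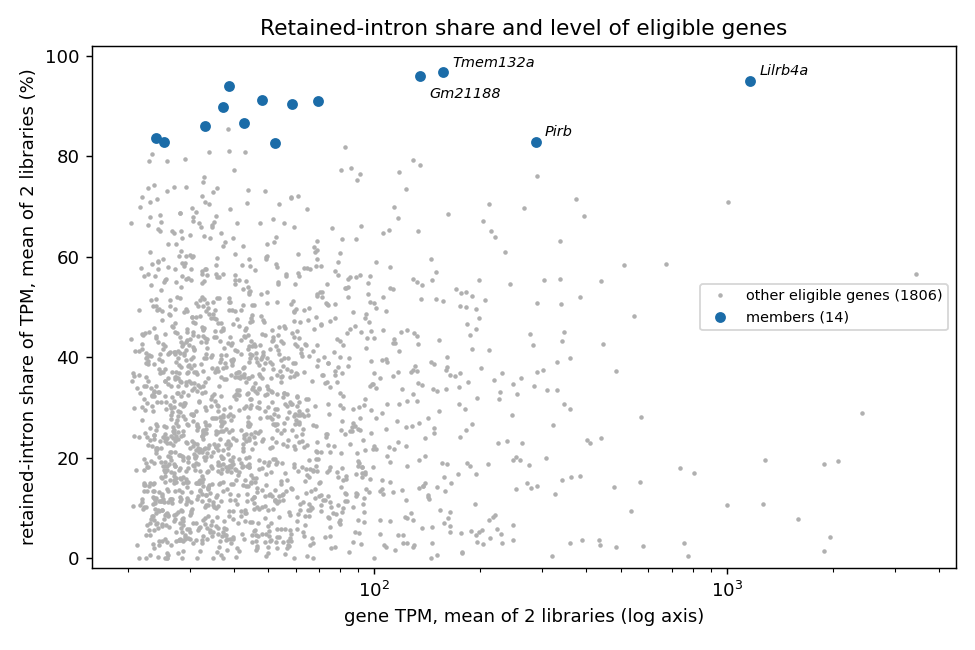
Each point is 1 of 1820 eligible genes, with its TPM (log axis) against its retained-intron share of TPM (%), both as the mean of 2 libraries; blue points are the 14 members and grey points the other 1806. The members lie along the top, and Lilrb4a, Pirb, Tmem132a and Gm21188 are the 4 above 100 TPM.

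The immune receptors among the members were Lilrb4a, Pirb and Cd83. Lilrb4a and Pirb encode inhibitory receptors that signal through cytoplasmic tyrosine motifs, and Cd83 encodes a surface protein that marks activated antigen-presenting cells. Lilrb4a (chr10:51490956-51496611, plus strand, mm10) had 1354 and 863 TPM on 9 retained-intron transcripts and 18.4 and 1.18 TPM on 4 coding transcripts. Its listed coding level was low in both libraries, which the rule selects for, and lower in replicate 2. That level depends on how reads in sequence shared with other genes, described below, were divided. Pirb (chr7:3711409-3720391, minus strand) had 227 and 249 TPM on retained-intron transcripts and 52.7 and 45.5 TPM on its coding transcript, which was the highest coding level among the members. Cd83 (chr13:43784775-43803132, plus strand) had 52.2 and 35.9 TPM on its retained-intron transcript and 4.22 and 4.02 TPM on its coding transcript.

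Cd83 had 1 transcript of each kind, so its share compares a pair of models. Cd83-202, with 2158 bases, had 2011 and 1539 expected counts, against 189 and 200 for Cd83-201, with 2477 bases. Only 95 bases of Cd83-202 (4.40%) lie outside coding exons, and they are a whole intron between coding exons at chr13:43785251-43785345. That intron has 67.4% GC, was shorter than every other coding intron of the gene (median 1873 bases), and its first in-frame stop begins at base 93, overlapping the 3′ splice site. In Pirb the leading transcript, meaning the one with the highest mean TPM, was Pirb-202 with 150 and 159 TPM, and its 227 bases outside coding exons are the whole intron at chr7:3716891-3717117. Of the retained-intron models of Pirb, 3 hold this intron, and its first in-frame stop begins at base 42. Both introns are shown whole because they carry all that separates these leading transcripts from coding exons; capitals mark the GT and AG ends and the first in-frame stop, and GENCODE M21 transcripts are the source.
Cd83-202 retained intron: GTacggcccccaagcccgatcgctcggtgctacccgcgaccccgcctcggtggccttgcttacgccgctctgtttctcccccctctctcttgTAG
Pirb-202 retained intron: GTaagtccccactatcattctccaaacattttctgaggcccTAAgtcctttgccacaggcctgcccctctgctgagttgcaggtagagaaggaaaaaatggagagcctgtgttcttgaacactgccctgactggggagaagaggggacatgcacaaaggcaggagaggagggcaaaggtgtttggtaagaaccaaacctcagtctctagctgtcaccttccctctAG

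Lilrb4a was spread over several retained-intron models. Lilrb4a-206, which begins inside an intron and holds no whole one, had 650 and 373 TPM. Lilrb4a-209, which holds 4 annotated coding introns, some of them alternatives that overlap, had 355 and 191 TPM and more counts than Lilrb4a-206 (19025 and 11358 against 13669 and 8868). The longest models shifted between libraries: Lilrb4a-214 had 31.6 and 97.8 TPM and Lilrb4a-211 had 94.6 and 45.1 TPM. The 3′ splice site inside Lilrb4a-206, from the intron at chr10:51494846-51495993, is shown because 778 bases upstream of it lie outside the coding exons of Lilrb4a; capitals mark the AG. Of these 778 bases, 457 are exon of the overlapping coding gene Gm49339, which leaves 321 (25.1% of the model) in no annotated coding exon of that strand.
Lilrb4a-206 acceptor: tcattgtctccttgctgcAGaaccca

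Lilrb4a and Pirb share sequence with other genes. Of the 31-base words of Lilrb4a-206, 77.5% also occur in transcripts of other genes, and of the leading coding transcript Lilrb4a-202 100% do. The neighbouring Lilr4b had 1199 and 812 TPM, with retained-intron shares of 70.1% and 71.6% by TPM and 86.6% and 86.8% by counts. A separate coding gene, Gm49339, overlaps Lilrb4a on the same strand over 958 bases of Lilrb4a-206 and had 139 and 113 TPM. Counting Gm49339 with the coding transcripts, an alternative chosen after the data were seen, lowered the Lilrb4a share from 95.1% ± 1.10 to 85.6% ± 0.576 (SD, n = 2), still above 80% in both libraries. For Pirb-202 the shared part was 56.9%, and Gm14548 was among the coding genes that share it, at 14.9 and 10.6 TPM. How the counts split between these copies cannot be told from the tables, so the Lilrb4a and Pirb values are uncertain.

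Tmem132a and Gm21188 followed in level. Tmem132a encodes a transmembrane protein, and no role is stated for the predicted gene Gm21188. Tmem132a (chr19:10857822-10869940, minus strand) had 193 and 112 TPM on its retained-intron transcript and 5.36 and 4.30 TPM on 3 coding transcripts. That retained-intron model, Tmem132a-203, is 1 exon of 1371 bases, which spans annotated introns of 412 and 368 bases at chr19:10859152-10859563 and chr19:10859756-10860123. The 412-base stretch is an intron of Tmem132a-201 only, at 0.230 and 0.250 TPM, and lies wholly within an exon of the leading coding transcript Tmem132a-202. The 479 bases outside coding exons are therefore the 368-base intron and 111 bases of a further intron. None of its 31-base words, read in transcript orientation, occur in transcripts of other genes. An in-frame stop begins at base 82 of the 368-base intron. On the opposite strand Slc15a3, at 207 and 239 TPM, shares 225 bases (16.4%) of Tmem132a-203 and 1529 bases (39.3%) of the coding transcript Tmem132a-202. Without a stated strand setting, reads in these bases cannot be assigned to a strand. Splice sites of both are shown because the first is spliced in 1 coding model and exonic in another, with the intronic GT or AG in capitals.
Tmem132a 412-base intron donor: aagcagGTgatggccgggggtgagag
Tmem132a 412-base intron acceptor: tgtgtccgtgtgccctgcAGgaggtg
Tmem132a 368-base intron donor: atcgagGTgagccgccacaggggacg
Tmem132a 368-base intron acceptor: cagtcgctttctactcttAGgttcgt

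Gm21188 (chr13:120034605-120052194, minus strand) had 174 and 87.1 TPM on retained-intron transcripts and 3.93 and 5.38 TPM on coding ones. Both of its retained-intron models end inside an intron: Gm21188-202 had 3629 and 1713 expected counts and Gm21188-204 had 2550 and 1884. Neither holds a whole intron, although 65.2% and 71.6% of their bases lie outside coding exons. Of the 31-base words of Gm21188-202, 66.5% occur in transcripts of other genes. The lincRNA Gm36161, at 176 and 68.4 TPM, alone holds 64.6% of the words of Gm21188-202, so the Gm21188 level is uncertain too. The pseudogene Gm31544, at 30.1 and 67.3 TPM, shares 180 bases of it on the opposite strand. The donor of the intron at chr13:120041951-120044509, into which Gm21188-202 reads, is shown with GT in capitals.
Gm21188-202 donor: gagcctGTaaagacttctctggatat

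Genes of nucleic acid handling were Ncl, Rfc2, Thoc1 and Rpain. Ncl encodes nucleolin, the abundant nucleolar protein of ribosome assembly; Rfc2 a subunit of the clamp loader of DNA replication; Thoc1 a subunit of the THO complex of mRNA export; and Rpain a protein that binds replication protein A and aids its nuclear import. Ncl (chr1:86344719-86359400, minus strand) had 57.1 and 29.7 TPM on retained-intron transcripts and 10.9 and 6.79 TPM on coding ones. Ncl-202 held most of it, at 52.8 and 23.3 TPM, and has 12 exons in 3072 bases against 8202 bases in the coding Ncl-201. Its 682 bases outside coding exons are the introns at chr1:86352320-86352509 and chr1:86352634-86353125, of 190 and 492 bases. In the shorter intron an in-frame stop begins at base 2, inside the donor site itself, and in the longer at base 99. The shorter is shown whole, with its ends and that stop in capitals, and the longer by its splice sites.
Ncl-202 190-base intron: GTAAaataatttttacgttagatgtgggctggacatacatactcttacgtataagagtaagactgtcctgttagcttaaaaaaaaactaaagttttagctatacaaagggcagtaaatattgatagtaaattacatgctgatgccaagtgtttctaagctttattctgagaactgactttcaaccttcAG
Ncl-202 492-base intron donor: ggagtgGTaagttaaagggtttattg
Ncl-202 492-base intron acceptor: tgttatctttgtatttgcAGgtgaat

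Thoc1 (chr18:9957906-9995489, plus strand) had 41.3 and 26.0 TPM on 11 retained-intron transcripts, the most models of any member, and 3.81 and 3.55 TPM on coding ones. No model dominated: the leading Thoc1-211 had 9.77 and 5.88 TPM, and its 216 bases outside coding exons include a whole intron of 197 bases. On the opposite strand Usp14, at 31.4 and 20.1 TPM, shares 405 bases (21.6%) of Thoc1-211 and 2169 bases (52.5%) of the coding Thoc1-201, so the Thoc1 values carry the same strand uncertainty as those of Tmem132a. Rpain (chr11:70970213-70977833, plus strand) had 19.1 and 21.1 TPM on retained-intron transcripts and 3.36 and 4.57 TPM on coding ones, from only 180 and 257 expected counts for the whole gene. Rpain-205, of 445 bases, begins in an intron and had 12.5 and 7.92 TPM.

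Rfc2 (chr5:134581366-134601805, plus strand) had 45.6 and 60.1 TPM on retained-intron transcripts and 4.30 and 4.58 TPM on the coding one. It was 1 of 4 members that were higher in replicate 2. By counts its division was more even, with 553 and 846 expected counts on retained-intron models and 408 and 480 on the coding Rfc2-201 of 4995 bases. Rfc2-204, the leading model at 831 bases, begins in an intron and has 90 bases outside coding exons. The coding Rfc2-201 shares 952 bases (19.1%) with exons of Lat2 on the opposite strand, at 126 and 153 TPM. The division of Rfc2 counts thus carries the same strand uncertainty as the Tmem132a values.

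Usp15, Becn1 and Mtm1 encode regulatory proteins of the cytoplasm and membranes. Usp15 is a deubiquitinating enzyme, Becn1 encodes beclin, a core protein of autophagy, and Mtm1 a phosphoinositide phosphatase. Usp15 (chr10:123105006-123196995, minus strand) had 68.3 and 58.3 TPM on 8 retained-intron transcripts and 4.96 and 7.35 TPM on coding ones. Its leading model Usp15-208, at 23.0 and 21.1 TPM, has 1587 bases, of which 16 (1.01%) lie outside coding exons. The model is thus almost wholly exonic. Those 16 bases, from the intron at chr10:123127870-123127963, end with the AG in capitals.
Usp15-208 acceptor: attgtcgcccgcgtAGgtttga

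Becn1 (chr11:101285952-101302286, minus strand) had 36.3 and 37.8 TPM on retained-intron transcripts and 2.41 and 1.93 TPM on coding ones. The leading Becn1-211, of 487 bases, has 5 bases outside coding exons and had 7.40 and 15.3 TPM from 39.2 and 100 expected counts. Becn1-202, which holds a whole coding intron of 633 bases, had 14.0 and 6.72 TPM from 680 and 362 expected counts. In replicate 1 it was first by both units, whereas in replicate 2 Becn1-211 was first by TPM and Becn1-210 first by counts (513). Of those 633 bases, 351 lie in an exon of another coding transcript of the gene. A decay-labelled transcript, Becn1-201, was listed at 0 in replicate 1 and had 4.01 TPM in replicate 2. Mtm1 (chrX:71210767-71315691, plus strand) had 24.4 and 17.5 TPM on retained-intron transcripts and 4.69 and 3.89 TPM on coding ones. The 4 leading Mtm1 models lay close together, from Mtm1-212 at 6.45 and 4.96 TPM to Mtm1-210 at 4.62 and 3.41 TPM. The listed Mtm1 coding level lay on different isoforms in the libraries: Mtm1-201 had 3.55 TPM and was listed at 0 in replicate 2, and Mtm1-203 had 0.920 and 3.36 TPM. That difference depends on how reads were assigned. The kallisto-layout table, described below, put both isoforms at or near 0 in both libraries. There the highest coding isoform was Mtm1-204, at 4.31 and 1.11 TPM.

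Dctn6 and Cep250 encode cytoskeletal proteins, a subunit of dynactin and a protein of centrosome cohesion. Dctn6 (chr8:34090420-34108796, minus strand) had 48.2 and 25.5 TPM on retained-intron transcripts and 0.540 and 2.09 TPM on coding ones. Its coding level rested on 7.71 and 36.5 expected counts, the fewest in replicate 1 of any member. Cep250 (chr2:155956458-155998900, plus strand) had 35.3 and 22.2 TPM on retained-intron transcripts and 3.88 and 4.90 TPM on coding ones. Cep250-209, of 352 bases, had 24.9 and 12.1 TPM from 66.0 and 44.3 expected counts, whereas Cep250-206, of 6361 bases, had 9.60 and 9.52 TPM from 1172 and 1280. The short model set most of the Cep250 TPM share and little of its count share.

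**Figure D2:**
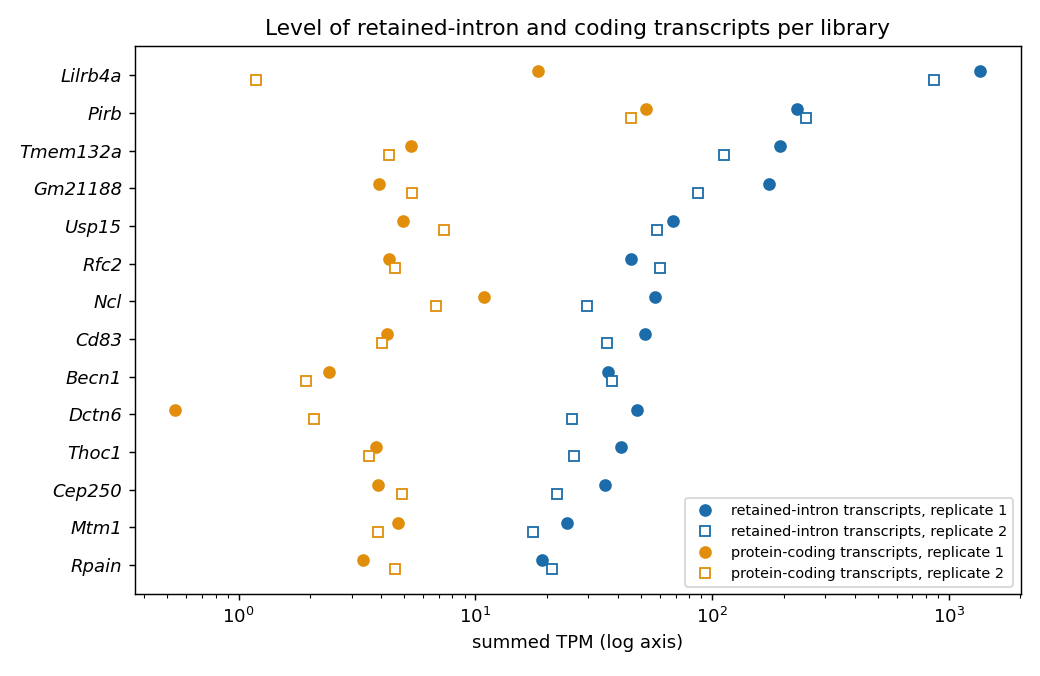
Summed TPM (log axis) of the retained-intron transcripts (blue) and protein-coding transcripts (orange) of each of the 14 genes, with filled circles for replicate 1 and open squares for replicate 2. In every gene and both libraries the retained-intron level is the higher, with the narrowest distance in replicate 1 of Pirb and the lowest coding level in Dctn6 replicate 1.

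A share of TPM weights each read by the inverse of the transcript's length, and a share of expected counts does not, so both were compared. By counts the median member share was 80.8% and 77.3%, against 14.0% and 14.4% in the other eligible genes. All 14 members kept at least 50% of counts on retained-intron transcripts in both libraries, where 8.85% of eligible genes did. Expected counts come from the same reads as the TPM that chose the members, so that choice partly set these shares. At 80% of counts 6 members remained (Lilrb4a, Tmem132a, Gm21188, Cd83, Dctn6 and Mtm1), where 0.879% of eligible genes, 16 in number, passed. These 16 and the members shared 6 genes, 37.5% of the former and 42.9% of the latter. The lowest shares by counts were those of Rfc2 (57.3% and 63.0%), Ncl (64.0% and 61.9%), Cep250 (68.7% and 62.4%), Rpain (67.4% and 64.6%) and Usp15 (71.1% and 66.0%). Length ratios of the leading coding to the leading retained-intron transcript ran from 2.47 in Rpain to 22.7 in Cep250 in these 5. Ratios in that range were not particular to them, with 2.84 in Tmem132a and 8.96 in Becn1. In the other eligible genes the ratios ran from 0.0614 to 40.2, with a median of 2.27, below all 5.

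The values so far came from tables with the column layout that RSEM writes. A further table per library, with the layout that kallisto writes, assigns reads of that library to the same transcripts. It held 34774610 and 27988909 estimated counts, more than the 20196408 and 19588980 expected counts. There 9 of 14 members had at least 80% of TPM on retained-intron transcripts in both libraries, and 0.934% of eligible genes, 17 in number, did. These 17 and the members shared 9 genes, 52.9% and 64.3% of each. In this table the other eligible genes had median shares of TPM of 31.1% and 30.5%, and how many passed 50% was not counted. All 14 members stayed above 50%. Becn1 moved most, from 90.3% and 82.8% to 53.9% and 61.7%, and Mtm1 went from 83.9% and 81.8% to 70.6% and 63.1%. The lower Becn1 share lay mainly on short models labelled processed_transcript, which is neither a coding nor a retained-intron label. In the kallisto-layout table Becn1-206, of 239 bases, had 10.6 and 0.650 TPM and Becn1-209 had 5.94 and 2.27 TPM. The leading coding transcript Becn1-205 had 1.96 and 0.345 TPM there. By kallisto-layout counts the other eligible genes had median shares of 18.0% and 17.1%, and how many passed 80% was not counted. By that measure 3 members, Lilrb4a, Tmem132a and Gm21188, were at 80% or more in both libraries. These 3 passed the limit under every measure shown, but every measure divides reads of the same 2 libraries. The shared sequence of Lilrb4a and Gm21188 and the opposite-strand overlap of Tmem132a therefore limit all of these measures.

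**Figure D3:**
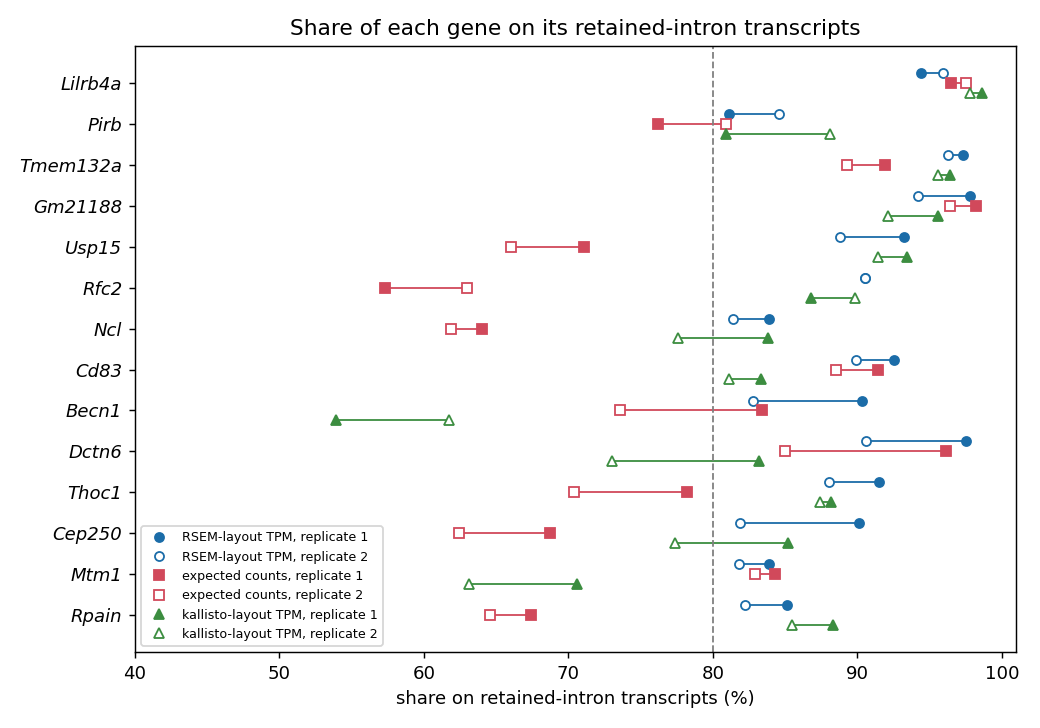
Share of each gene on its retained-intron transcripts (%), by RSEM-layout TPM (blue circles), expected counts (red squares) and kallisto-layout TPM (green triangles); filled symbols are replicate 1, open symbols replicate 2, lines join the 2 libraries and the dashed line is the 80% limit. Blue symbols all lie right of the limit, which the rule fixes, while both red symbols of Rfc2, Ncl, Usp15, Thoc1, Cep250 and Rpain lie left of it.

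The retained-intron label covered models of different make-up. Of the 14 leading models, 5 held a whole coding intron (Pirb, Tmem132a, Ncl, Cd83 and Thoc1), 7 began inside an intron and 2 ended inside one (Gm21188 and Mtm1). Among the other eligible genes 29.6% held a whole intron, 23.7% began in one, 36.6% ended in one, 8.86% did both and 1.27% were of another kind. The leading models of members had a median of 16.9% of their bases outside coding exons (188 bases), against 53.4% (555 bases) in the other eligible genes. Weighted by counts over all retained-intron models, the medians were 31.3% and 33.0% against 53.9% and 52.7%. In the median leading model most bases thus also belong to an exon of a coding transcript. Lilrb4a, Gm21188 and Mtm1 were the members with over 50% of the leading model outside the gene's own coding exons (25.1% in Lilrb4a with Gm49339 exons taken off), and Usp15, Becn1 and Cd83 those under 5%.

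**Figure D4:**
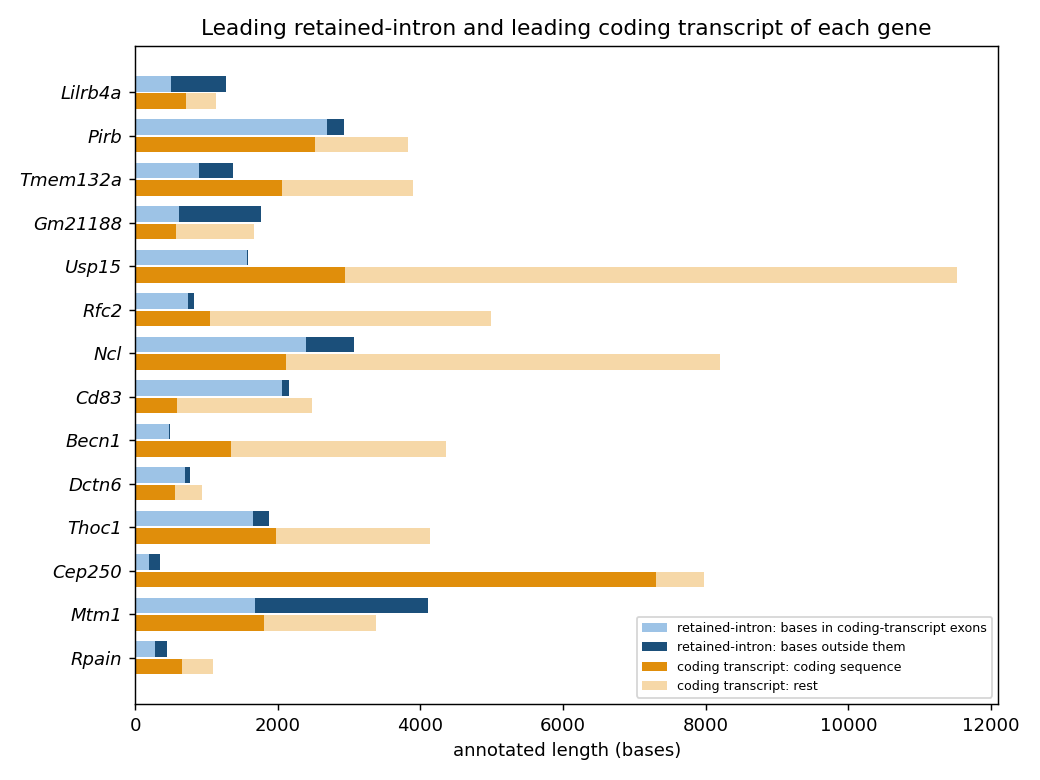
Annotated length (bases) of the leading retained-intron transcript (upper bar, light blue for bases in exons of coding transcripts and dark blue for bases outside them) and the leading coding transcript (lower bar, orange for coding sequence and pale for the rest) of each gene. Dark blue is hardly visible in Usp15 (16 bases) and Becn1 (5 bases) and is the larger piece in Lilrb4a, Gm21188 and Mtm1.

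**Figure D5:**
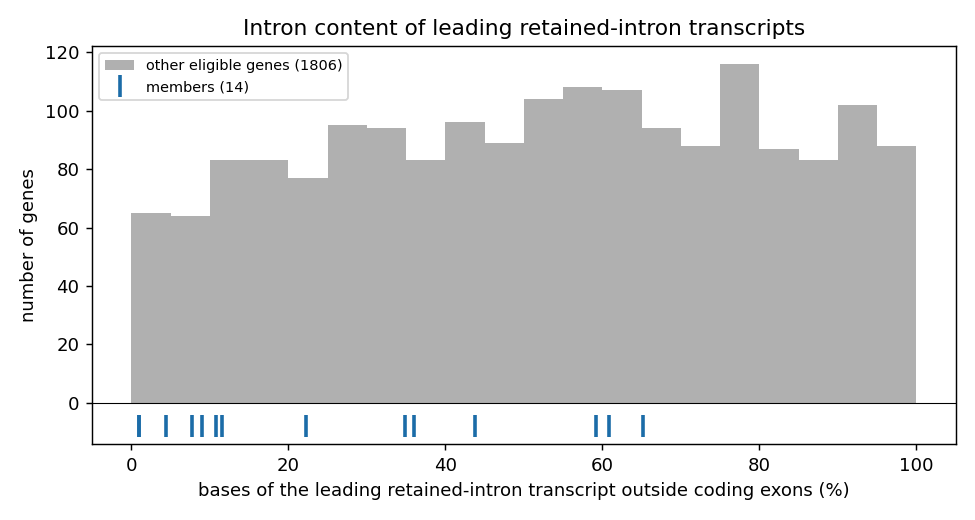
Percent of the leading retained-intron transcript outside coding exons, as a histogram of the other 1806 eligible genes (number of genes per bin) with the 14 members as blue ticks below it. The members lie between 1.01% and 65.2%, with a median of 16.9% against 53.4%.

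Across all 68 retained-intron models of the members, 32 distinct coding introns of 9 members were held whole. Some are alternatives that overlap, so the 32 lie in 24 separate regions, and 8 of them have bases in an exon of another coding transcript, 2 of these over their full length. All 32 start with GT and end with AG. They had a median length of 484 bases (63 to 1587) and a median GC content of 44.2% (26.4 to 67.4%), and 22 were shorter than the median of the gene's other coding introns. Of the 31 that lie between coding exons, 29 held a stop codon in the frame of the exon before, at 25 distinct positions, and 2 did not, an intron of 63 bases in Cep250 and one of 142 bases in Lilrb4a. In 20 of the 31 the length was not a multiple of 3. Stops and multiples of 3 were not counted in other introns, so these counts are not shown to be particular to introns held whole. Usp15, Rfc2, Gm21188, Dctn6 and Rpain had no model that holds a whole coding intron, so their retained-intron levels come from models that hold only parts of introns.

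Levels of the members were lower in replicate 2 in about the same proportion as those of the other eligible genes. On the log2(TPM + 1) scale the median difference, replicate 2 minus replicate 1, was −0.50 over the members and −0.19 over the others. Of the members 10 of 14 and of the other genes 1251 of 1806 other genes were lower in replicate 2, and 9 members lay below the median of the others. The retained-intron levels shifted by a median of −0.59 and the coding levels by −0.07, against −0.11 and −0.18 in the others. The widest falls were in Gm21188 (−0.94), Ncl (−0.88) and Dctn6 and Tmem132a (−0.79 and −0.77), and Rfc2 was highest at 0.39, followed by Becn1 and Rpain at 0.18. With TMM-scaled CPM in place of TPM the medians were −0.18 and 0.08. On that scale 8 of 14 members were lower in replicate 2 and 8 lay below the median of the others. The distance between the medians was −0.31 by TPM, −0.26 by TMM-scaled CPM and −0.16 in kallisto-layout sums. The libraries also differ in starting amount, which cannot be told apart from other differences between them.

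Thoc1 was the only member found in lists of RNA processing and response genes. Of mRNA export genes with both kinds of transcript at 20 TPM or more, Thoc1 was the sole gene of 5 above 50%, and it was also above 80%. No list gene of nonsense-mediated decay (3 eligible), of the nuclear exosome and poly(A) retention (5) or of the housekeeping list (7) reached 50% in both libraries. In the core spliceosome list 5 of 19 reached 50% and none 80%: Snrnp70 (65.9% and 56.9%), U2af2 (56.0% and 50.1%), Sf3b1 (56.7% and 51.2%), Luc7l (59.9% and 62.5%) and Luc7l2 (64.7% and 63.2%). In the minor spliceosome list Zcrb1 (80.7% and 71.0%) was 1 of 2. Of early inflammatory genes 3 of 7 reached 50%, Cxcl2 (59.6% and 62.4%), Tnfaip3 (59.3% and 51.3%) and Dusp1 (68.5% and 78.5%), and of interferon-stimulated genes Ifih1 (54.4% and 51.0%) was 1 of 16. These shares stand beside the 12.7% of all eligible genes that reached 50%, and the lists hold few genes. The rule's name filter left out 3 genes past the share, Slc27a1 (89.8% and 98.7%), Rps16 (90.1% and 93.0%) and Tnip3 (91.3% and 93.2%).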

How the data were processed

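Total RNA of the nucleoplasmic fraction was sequenced in 2 libraries of 1 group. The deposited expected counts, TPM and posterior mean TPM per gene and transcript were made from alignments to the mm10 transcriptome with GENCODE M21, per the deposited file notes. A second deposited transcript table, of kallisto layout, holds estimated counts and TPM made directly from the reads. TPM of its 2 libraries have different totals over these genes, so its shares were used. Its gene sums enter only as an alternative in the ratios between libraries. Which programs made the tables, and with what strand setting, is not given in the sources used here.

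Shares, structures and lists were computed with Python 3.11.15 and pandas 2.3.3, and the share calculation was tested on simulated data. A base was called outside coding exons when no protein_coding transcript of the gene has it in an exon. Intron and splice-site sequences were read from GENCODE M21 transcripts by annotated exon positions. Shared sequence was counted in words of 31 bases over all annotated transcripts, in transcript orientation, so overlap with genes on the opposite strand is not included. For ratios between libraries a pseudocount of 1 was added to TPM; TMM and DESeq2 scaling of expected counts (edgeR 4.0.16, DESeq2 1.42.0, R 4.3.3) were alternatives. With 1 group no test was made. Named genes were all members, the 3 genes on either side of the 80% limit, genes of the lists past 50% and genes that overlap or share sequence with a member. Intron sequences were to be shown for members whose leading model holds a whole coding intron; that of Thoc1 is not shown, and those of Lilrb4a, Gm21188 and Usp15 were chosen after their values were seen. The members and lists were chosen with earlier results of these data known.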

Additional observations from a re-analysis of the deposited data

How the results depend on the processing

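The set depends on its limits. In place of 14 genes, 25 passed with a gene TPM of at least 10, 6 with at least 50, 43 with a share of at least 70% and 5 with at least 90%, and with 1 library alone 18 (replicate 2 alone) to 37 (replicate 1 alone) passed. The median member share by counts, 79.0% ± 2.52 (SD, n = 2), was 70.8% for genes chosen by kallisto-layout TPM, 87.7% chosen by counts, 86.2% and 84.6% at 10 and 50 TPM, 72.0% and 92.7% at shares of 70% and 90%, and 74.0% to 80.6% with 1 library left out. Leaving out the 3 members that share over 50% of their leading model's sequence with other genes, an alternative added after seeing the data, gave 74.3%. The median kallisto-layout share of 86.2% was 74.5% by estimated counts. The median log2 ratio between libraries of −0.50 was −0.51 with a pseudocount of 0.1, −0.18 with TMM, −0.22 with DESeq2 size factors and −2.17 in kallisto-layout sums, where the other eligible genes stood at −2.01. Of single member shares, 10 of 14 moved by more than 1 SD by expected counts (11 of 14 were lower), 9 by kallisto-layout TPM, 11 by its counts and 3 by posterior mean TPM; the causes were not tested. No paired analysis was possible because both libraries belong to 1 group. Precision is limited by 2 libraries and, in Rpain and Dctn6, by under 500 expected counts per gene.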
